A study of Papio hamadryas with 14 samples.

Results

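The comparison described here sets the kidney of the baboon fetus (Papio hamadryas) at 160 days of gestation (160dG, 3 arrays) against the kidney at 60 days of gestation (60dG, 2 arrays), the latest and the earliest fetal stage sampled. The 5 arrays were chosen by the stage in their sample titles, from the 14 arrays of the series. The other fetal arrays (90dG and 125dG, 3 each) entered the model that estimates the spread and are given below as stages in between. The adult arrays, of another array type, were not used. Each array measured total RNA of whole kidney from an animal for which the labels give no treatment and no genetic change, and the titles call the arrays of a stage biological replicates. The labels name no fetal sex, mother or dissection. The RNA was hybridised to a human expression array. Signals are therefore compared between arrays for the same probe set and never between genes, and a signal near 0 does not show that the baboon gene is silent.

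The kidney of a primate fetus grows from the outside. Branching ureteric bud tips hold a cap of nephron progenitor cells around them, and the cap gives off new nephrons until late gestation, while older nephrons deeper in the organ already filter and reabsorb. Each nephron passes from a renal vesicle to a glomerulus with podocytes, a proximal tubule that recovers solutes and protein, a loop of Henle and a distal tubule that joins the collecting duct. A whole organ taken early is therefore rich in dividing progenitors, and one taken late holds many more tubules. In whole organ RNA, more cells of a type and more RNA per cell of that type cannot be told apart.

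The 60dG arrays stood apart from each other in 2 sets of genes, and every result below rests on these arrays. On 60dG replicate 2, genes of adrenal steroid synthesis were high. CYP17A1, the steroid 17-hydroxylase, read 4960.3 there, against 8.7 on 60dG replicate 1 and 61.4, 109.5 and 61.8 on the 160dG arrays. STAR, which moves cholesterol into mitochondria, read 1097 on it and at most 13.3 on any other fetal array. CYP11A1 read 728 against at most 65.5 elsewhere, and CYP11B1 640.1 against at most 112. Of the 8 adrenal markers on the table, HSD3B2 and INHA were also highest there, at 154 and 575, while the adrenal receptor MC2R and the factor NR5A1 were not. The summed signal of the 8 markers was 8326 on 60dG replicate 2, 434.5 on 60dG replicate 1 and 446.2 to 683 on the 160dG arrays. FDX1, which supplies electrons to the steroid hydroxylases and was added after its values were seen, read 1245 on 60dG replicate 2 and at most 540.3 elsewhere.

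On 60dG replicate 1, XIST, the RNA that silences an X chromosome in female cells, read 4589, while 60dG replicate 2 read 139 and the 9 later arrays 50.2 to 92.2. RPS4Y1, a gene of the Y chromosome, read 90.2 on it, 5138 on 60dG replicate 2 and 3332 to 5562 on the later arrays. So 1 of the 5 arrays compared differs from the other 4 in sex-linked genes and another in adrenal genes, and both are among the 2 arrays of 60dG. The part of either in the results was not tested, and a difference called below is therefore described as kept where it was called again in both fits that leave out 1 of the 60dG arrays. Each of those fits has a single 60dG array, which is assumed to vary as the other stages do.

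**Figure D1:**
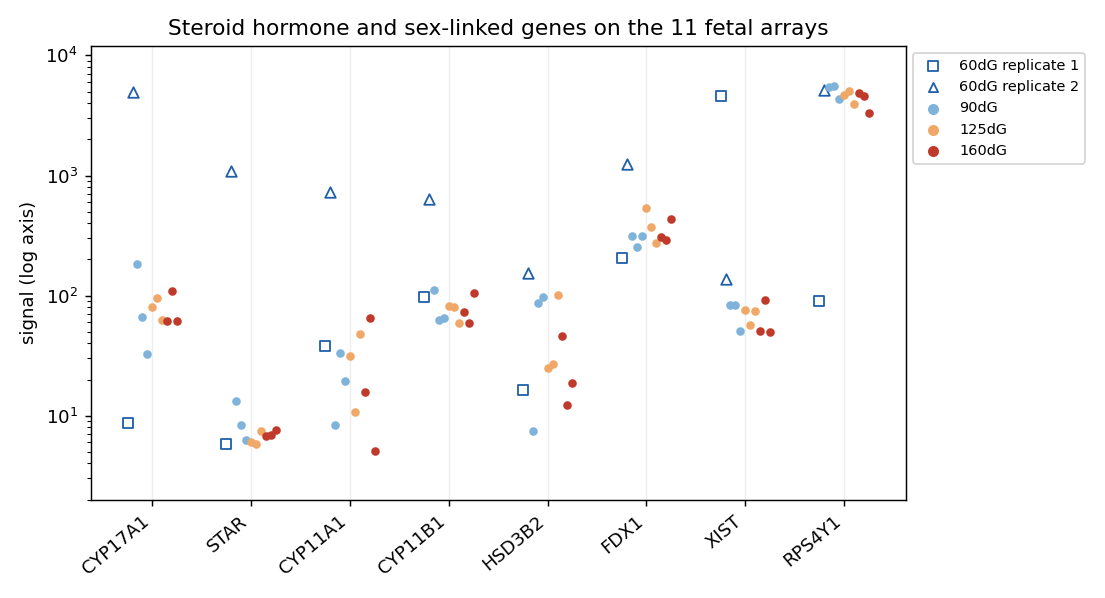
Signal (log axis) of 6 genes of adrenal steroid synthesis, of XIST and of RPS4Y1 on the 11 fetal arrays, each symbol being 1 array. The triangle of 60dG replicate 2 lies above every other array for the 6 steroid genes (4960.3 for CYP17A1), and the square of 60dG replicate 1 stands alone for XIST (4589) and RPS4Y1 (90.2).

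The 5 arrays were close in median signal and in 1 of 2 measures of RNA length. Their median signals lay between 176.2 and 192.5, and the 3′ to 5′ ratio of the GAPDH control probes, a measure of RNA length, lay between 1.62 and 1.96. That ratio reached 3.43 among the 90dG arrays. The other measure, the same ratio for the actin control probes, was 1.505 and 1.268 at 60dG and 1.034, 0.930 and 1.221 at 160dG. Both 60dG arrays thus lay above every 160dG array in the actin ratio, and the part of this difference in the results was not tested. The defining genes of kidney were present at both stages: PAX8, a factor of the whole nephron lineage, read 2350.4 and 2247 at 60dG and 2454, 3118 and 2484 at 160dG, and the podocyte and stroma factor TCF21 read 3321 and 2923 at 60dG and 3988, 4953 and 5145 at 160dG.

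Of 5278 genes tested, 614 (11.6%) were called different between the stages (limma moderated test on log2(signal + 16), Benjamini-Hochberg adjusted p under 0.05). Higher at 160dG were 365 genes (6.92%) and lower 249 (4.72%). Counts of calls in the gene lists below are to be read beside these shares. The lists were chosen with earlier results of these data known, so their counts are no independent evidence. The genes called higher had a median log2 difference of 1.12 (quartiles 0.89 and 1.48), and those called lower of -0.96 (quartiles -1.34 and -0.75), while the median of all tested genes was -0.01. Called and at least 2-fold different were 338 genes (6.40%), 223 higher and 115 lower. At least 4-fold different were 54 genes, 31 higher and 23 lower, and at least 8-fold 12 genes. On this scale, adding 16 before the logarithm shrinks the difference of dim genes. The arrays of the stages did not overlap for 2261 genes (42.8%): all 160dG arrays lay above both 60dG arrays for 1107 genes (21.0%) and below both for 1154 genes (21.9%). A fit that left out 60dG replicate 1 called 242 genes, and 1 that left out 60dG replicate 2 instead called 366. Of the 614 calls 180 were kept, 114 higher (2.16% of genes tested) and 66 lower (1.25%).

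**Figure D2:**
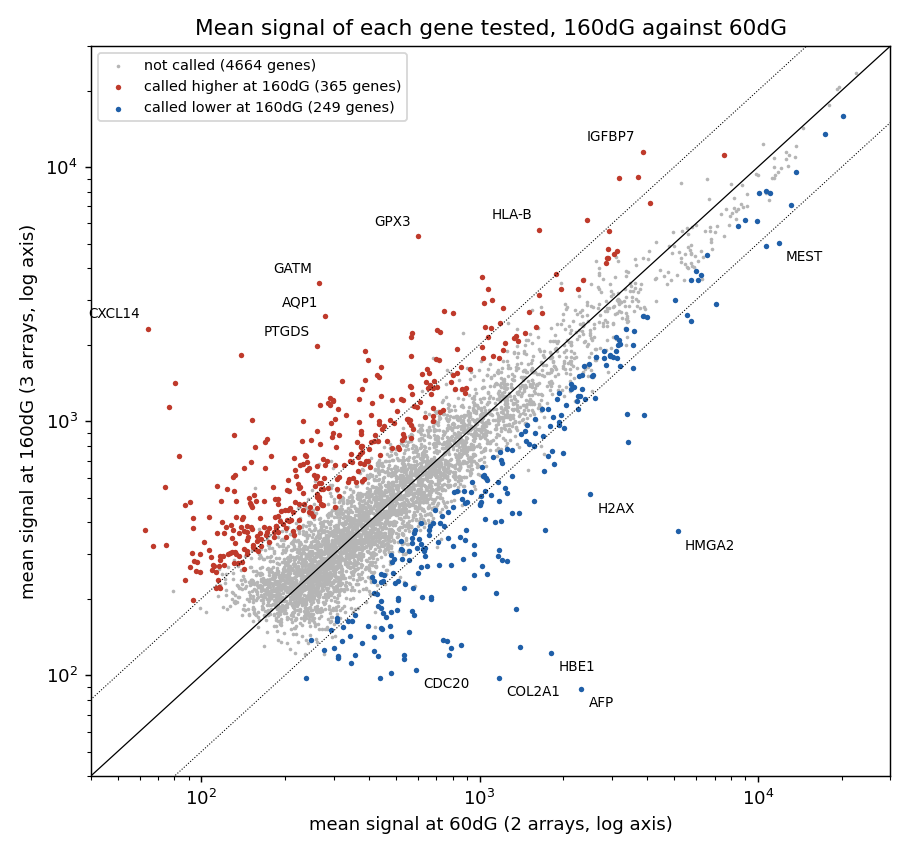
Mean signal of each of the 5278 tested genes at 160dG (vertical, 3 arrays) against 60dG (horizontal, 2 arrays), both on log axes. Points above the solid line of equality are higher at 160dG, dotted lines mark a 2-fold difference of mean signal, red and blue points are the 365 and 249 genes called, and grey points the 4664 not called.

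The 15 largest rises were led by CXCL14, a chemokine made by epithelia, which read 46.0 and 82.4 at 60dG and 1579.6, 1558 and 3808 at 160dG. Every 160dG array exceeded every 60dG array, as the rule for naming these genes required, and replicate 3 was far above the other 160dG arrays. The log2 difference was 4.77 ± 0.38 (SE; limma adjusted p = 4.63e-06). UGT2B28, a glucuronosyltransferase that conjugates steroids, read 10.6 and 149.8 at 60dG and 1234, 1007 and 1982 at 160dG (4.36 ± 0.52), and its 60dG arrays differed from each other more than its 160dG arrays did. Its probe set is of the kind that can bind related transcripts, so the signal may include other UGT2B members. AOC1, the diamine oxidase that breaks down histamine and putrescine, read 75.6 and 76.9 at 60dG and 965, 676 and 1770.0 at 160dG (3.53 ± 0.35, adjusted p = 2.48e-05). Its 60dG arrays were nearly equal and the 160dG arrays spread over more than a doubling. GATM, which makes the precursor of creatine, read 307 and 224 at 60dG and 4323, 1331 and 4849 at 160dG (3.46 ± 0.53, adjusted p = 0.000734), with 160dG replicate 2 well below the other arrays of its stage yet above both 60dG arrays. GPX3, the plasma glutathione peroxidase that proximal tubule cells secrete, read 272 and 929 at 60dG and 6288, 3273 and 6473 at 160dG (3.30 ± 0.39). Here 60dG replicate 2, the array with adrenal transcripts, was the higher of the 60dG arrays, and all 160dG arrays were above it.

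Others of the 15 were PTGDS, a prostaglandin D synthase, at 302 and 217 at 60dG and 2459, 1209 and 2266 at 160dG (2.81 ± 0.27), and CDH16, the kidney cadherin of tubule epithelium, at 114 and 147 at 60dG and 960.3, 781 and 911 at 160dG (2.62 ± 0.29). DIO1, the deiodinase that activates thyroid hormone, read 61.4 and 120.2 at 60dG and 422, 449 and 573 at 160dG (2.26 ± 0.28, adjusted p = 0.000115), and XPNPEP2, a brush border aminopeptidase, read 161 and 144 at 60dG and 1173, 753 and 1104 at 160dG (2.58 ± 0.25). CES1, a carboxylesterase, read 51.8 and 13.1 at 60dG and 391, 229 and 333 at 160dG (2.88 ± 0.39). The rule that named the 15 required that the stages do not overlap, so their separation is no further finding. All of the 15 calls were kept.

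The 15 largest falls were led by AFP, a plasma protein of the fetus related to albumin, which read 1542 and 3099 at 60dG and 117, 58.3 and 88.3 at 160dG (-4.45 ± 0.44, adjusted p = 2.30e-05). The 60dG arrays differed from each other more than the 160dG arrays did, and both were far above them. HMGA2, a chromatin protein of embryonic growth, read 5496 and 4817 at 60dG and 380.2, 418 and 307 at 160dG (-3.76 ± 0.17, adjusted p = 1.88e-08), with tight arrays at both stages and the smallest adjusted p of the comparison. IGF2BP3, an RNA-binding protein of fetal tissue, read 902 and 816 at 60dG and 140.1, 102 and 153 at 160dG (-2.58 ± 0.26). DKK1, a secreted inhibitor of Wnt signalling, read 763 and 793 at 60dG and 118, 160.0 and 83.2 at 160dG (-2.58 ± 0.24), and the growth factor midkine (MDK) read 1437 and 862 at 60dG and 213, 209.8 and 212 at 160dG (-2.31 ± 0.36, adjusted p = 0.000735). The proliferation genes CKS2, CCNB2, CDC20, PRC1, PLK1, CCNA2 and H2AX made up most of the rest. Of the 15, 14 were kept, and the exception was the mitotic kinase PLK1. PLK1 read 398 and 477 at 60dG and 11.3, 148 and 134 at 160dG, with 160dG replicate 1 far below the other arrays of its stage (-2.36 ± 0.57, adjusted p = 0.0151, against 0.0823 and 0.103 without 60dG replicate 1 and 2).

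**Figure D3:**
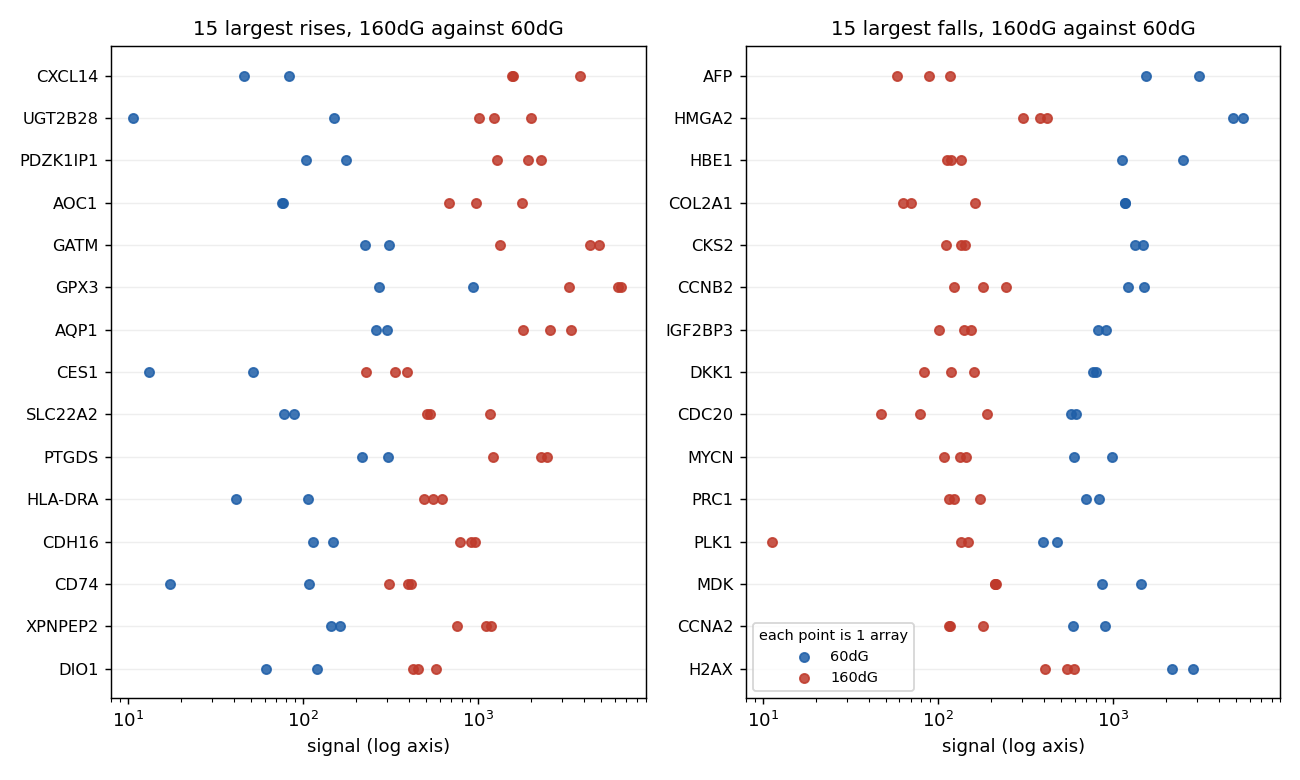
Signal (log axis) of the 15 genes with the largest rise (left) and the 15 with the largest fall (right) on each of the 2 arrays of 60dG (blue) and 3 arrays of 160dG (red). The colours do not overlap for any gene, which the rule for naming them required, and the gap is widest for CXCL14, from 82.4 to 1558.

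Most of the tested proximal tubule markers rose. The list has 64 genes, of which 44 were on the table and 27 above the filter on mean level over all 11 fetal arrays. A gene dim at 60dG can pass this filter through its later signals, as SLC22A2 did. Shares of the 27 are therefore not shares of all 44, and the same limit holds for the lists below. Of these 27, 18 were called higher and 0 lower, against 6.92% and 4.72% of all genes, and their median log2 difference was 1.32. Kept were 11, and 26 of 27 differences were positive. AQP1, the water channel of proximal tubule and thin limb, read 259 and 299.6 at 60dG and 2566, 1801 and 3389 at 160dG (3.09 ± 0.23, adjusted p = 3.58e-06). PDZK1IP1, a small membrane protein of the brush border, read 103 and 174 at 60dG and 1906, 1280.3 and 2272 at 160dG (3.57 ± 0.28), and SLC22A2, the basolateral importer of organic cations, read 77.4 and 88.9 at 60dG and 505, 529 and 1159 at 160dG (2.81 ± 0.29). In each the 2 stages lay far apart and 160dG replicate 3 was highest.

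Among the 10 transporters of ions, sugars and amino acids tested, 7 rose. The sodium-glucose cotransporter SLC5A2 read 113 and 153 at 60dG and 382, 348 and 528 at 160dG (1.54 ± 0.23, adjusted p = 0.000539) and the phosphate transporter SLC34A1 237 and 285 at 60dG and 569, 481 and 771 at 160dG (1.15 ± 0.22). SLC4A4, which exports bicarbonate (1.80 ± 0.33), SLC15A2, which imports small peptides (1.44 ± 0.21), and SLC7A9, the light chain of the cystine carrier (1.20 ± 0.24), were also called. Its heavy chain SLC3A1 read 249.9 and 215 at 60dG and 1105, 466 and 1437 at 160dG and was called with both 60dG arrays only (1.90 ± 0.47, adjusted p = 0.0171). Of the 6 endocytosis and scaffold genes, 4 rose. The scavenger receptor megalin (LRP2) read 684 and 921 at 60dG and 1683, 1739 and 4539.9 at 160dG (1.56 ± 0.35) and was called without 60dG replicate 2 but not without replicate 1. Its partner cubilin (CUBN) read 117 and 264 at 60dG and 264, 229 and 474 at 160dG, where the stages overlapped (0.74 ± 0.48, adjusted p = 0.372). Brush border peptidases were uneven: MME, or neprilysin, read 793 and 619.5 at 60dG and 2484, 1721 and 2637 at 160dG (1.66 ± 0.20), ANPEP rose (1.49 ± 0.26), and DPP4 had a difference of -0.02 ± 0.24. The transcription factor PPARA, which drives fatty acid oxidation genes, was called too (1.09 ± 0.24).

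The rise was uneven within 160dG. Replicate 2 was the lowest 160dG array for 21 of the 27 members and replicate 3 the highest for 22, whereas over all 5278 genes replicate 2 was lowest for 1695. The median member stood 1.31, 0.94 and 1.70 above the 60dG mean on replicates 1, 2 and 3. Between the 60dG arrays, replicate 1 was the lower for 21 of 27. Most of the difference was present early: on the 90dG arrays the same median was 1.10, 1.15 and 0.93, and on the 125dG arrays 1.08, 0.91 and 1.16. Further proximal tubule genes lay under the level filter. Among these, SLC22A11, a urate and organic anion transporter, read 5.7 and 24.2 at 60dG and 629, 173 and 675 at 160dG and CDHR5, a protocadherin of microvilli, read 4.6 and 32.5 at 60dG and 224, 227 and 333 at 160dG. Both were called higher when no filter was applied (3.89 ± 0.50 and 3.11 ± 0.63).

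The list of thick ascending limb markers has 13 genes, of which 7 were measured and 4 lay above the level filter. All 4 tested markers were called higher (median 1.85), against 6.92% of all genes, but not all of these calls were kept. The filter is on the mean over all fetal arrays, so a gene dim at 60dG can pass it through its later signals. Measured markers under the filter are not in this count. SLC12A1, the salt transporter that loop diuretics block, read 553 and 578 at 60dG and 2471, 1559 and 1371 at 160dG (1.60 ± 0.27, adjusted p = 0.00157) and was kept. Its potassium channel partner KCNJ1 read 101 and 127 at 60dG and 739.7, 526 and 397 at 160dG (2.10 ± 0.57, adjusted p = 0.027), and PTGER3, a prostaglandin E2 receptor, read 166 and 174 at 60dG and 933, 933 and 626 at 160dG (2.16 ± 0.25) and was kept. KCNJ1 lost its call when either 60dG array was left out, and CLDN10, the paracellular sodium claudin, when 60dG replicate 1 was. SLC12A1 and KCNJ1 took a late course. SLC12A1 had covered 4.08% of its difference at 90dG and 26.3% at 125dG, and KCNJ1 2.91% and 44.7%, where AQP1 had covered 90.8% and 86.5%. A further AQP1 probe set read 190.3 and 182.4 at 60dG, 245.5, 266.5 and 248.8 at 90dG and 385.5, 320.7 and 431.2 at 160dG. The early course of AQP1 therefore rests on 1 probe set.

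Of the 5 distal tubule genes tested, 0 were called in either direction (limma; median 0.56). The calcium-binding protein CALB1 had the largest difference (0.74 ± 0.27). At unadjusted p under 0.05, 1319 of all 5278 genes passed, and leaving out 160dG replicate 2 gave 1 distal call and leaving out 90dG replicate 1 gave 2. In the collecting duct list, 3 of 8 rose and 1 fell. SCNN1A, the alpha subunit of the epithelial sodium channel, read 206 and 132 at 60dG and 851, 433 and 674 at 160dG (1.83 ± 0.29, adjusted p = 0.00091) and was the member kept. CA2, a carbonic anhydrase, read 561 and 758 at 60dG and 1384, 1638 and 1632 at 160dG (1.23 ± 0.26), and ATP6V1B1, a proton pump subunit of acid-secreting intercalated cells, read 127 and 55.1 at 60dG and 265, 183 and 351 at 160dG (1.44 ± 0.35). The vasopressin-regulated water channel AQP2 read 294 and 347 at 60dG and 404, 399.5 and 310.0 at 160dG and did not pass (0.20 ± 0.24, adjusted p = 0.681). GATA3, a ureteric bud and collecting duct factor, fell by 0.65 and lost its call when either 60dG array was left out and under quantile normalization. Below the filter, HSD11B2, which shields the mineralocorticoid receptor from cortisol, read 39.4 and 29.8 at 60dG and 381, 461 and 617 at 160dG, and SLC4A1, the anion exchanger of intercalated and red cells, read 25.4 and 41.7 at 60dG and 288, 206 and 226 at 160dG. Both were called without the filter (3.29 ± 0.41 and 2.38 ± 0.39).

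Most glomerular and vascular genes tested did not pass. Called higher were 25% of podocyte, 7.69% of endothelial and 27.3% of mural and mesangial genes, against 6.92% of all genes. Called lower were 0%, 7.69% and 9.09%, against 4.72% of all genes. Of 12 podocyte markers, 3 were called higher (median 0.44) and 1 was kept, HTRA1, a secreted protease, at 499 and 373 at 60dG and 1192, 1626 and 1645 at 160dG (1.73 ± 0.22, adjusted p = 0.000155). CLIC5, a chloride channel protein of foot processes, read 382 and 368 at 60dG and 1209, 515 and 1011 at 160dG (1.16 ± 0.30), and TCF21 differed by 0.58 ± 0.15. Either of these was lost without 60dG replicate 1 or 2, and without 60dG replicate 2 or 160dG replicate 3 the list had 1 call. Nephrin (NPHS1), the slit diaphragm protein, read 188 and 194 at 60dG and 231, 195 and 177 at 160dG, with overlapping stages (0.06 ± 0.38, adjusted p = 0.944), and podocalyxin (PODXL) read 318 and 341 at 60dG and 285, 188 and 207 at 160dG (-0.53 ± 0.29, adjusted p = 0.278). Of 13 endothelial genes, EHD3, of the glomerular endothelium, was called higher (1.18 ± 0.31) and the guidance receptor ROBO1 lower (-0.95 ± 0.26), and neither was called without 60dG replicate 1. The adhesion molecule PECAM1 read 433 and 517 at 60dG and 859, 691 and 809 at 160dG and missed the threshold (0.71 ± 0.23, adjusted p = 0.0616), and the VEGF receptor KDR differed by 0.44 ± 0.21 (adjusted p = 0.21). In all, 12 of the 13 endothelial differences were positive. Under the filter, FLT1, another VEGF receptor, read 13.3 and 91.6 at 60dG and 193, 199.4 and 309.2 at 160dG. The endothelial gene ESM1 read 70 and 56.1 at 60dG and 175.5, 152.7 and 198.1 at 160dG. Both were called higher without the filter (2.12 ± 0.46 and 1.27 ± 0.33). Among 11 mural and mesangial genes, 3 rose and 1 fell. MYLK, the myosin light chain kinase, read 431 and 346 at 60dG and 1485, 2819 and 1357 at 160dG (2.16 ± 0.29), and RGS5, a pericyte gene, read 93.3 and 167 at 60dG and 529, 783 and 495 at 160dG (2.10 ± 0.27, adjusted p = 0.000184). Both were kept, and in both 160dG replicate 2 was highest. TAGLN rose and MCAM fell (1.01 ± 0.29 and -0.82 ± 0.20), and neither was kept. The smooth muscle actin ACTA2 (0.44 ± 0.27) and the pericyte receptor PDGFRB (0.25 ± 0.26) did not pass.

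Genes of the nephrogenic zone that passed were mostly lower at 160dG, and most members did not pass. Called lower were 36.4% of nephron progenitor, 25% of early nephron and 50% of ureteric bud genes, against 4.72% of all genes. Called higher were 9.09%, 0% and 0%, against 6.92% of all genes. Of 11 nephron progenitor genes tested, 4 fell and 1 rose (median -0.66), and 2 falls were kept. MYCN, the growth factor-driven transcription factor of the cap, read 979 and 595 at 60dG and 134, 144 and 107 at 160dG (-2.44 ± 0.28, adjusted p = 7.70e-05). EYA1, a phosphatase that works with homeobox factors to keep progenitors undifferentiated, read 468 and 490.1 at 60dG and 137, 122 and 171 at 160dG (-1.65 ± 0.24, adjusted p = 0.000498). Stages were clearly apart in both. SALL1 read 1498 and 1420.0 at 60dG and 1023, 906 and 814 at 160dG (-0.67 ± 0.19, adjusted p = 0.0336) and PAX2 651 and 512 at 60dG and 298, 392 and 395 at 160dG (-0.66 ± 0.20, adjusted p = 0.0477), and both lost their calls when any of the 60dG arrays or 160dG replicate 2 or 3 was left out. PAX2 lost its call in 16 of 22 other settings, and SALL1 in 6 of 21. FGF9, a progenitor survival signal, was the gene that rose (0.86 ± 0.22), and it lost its call without 60dG replicate 1 or 160dG replicate 1. Below the filter, SIX2, the master factor of the progenitor pool, read 215 and 194 at 60dG and 89.0, 77.5 and 119 at 160dG, CITED1 201 and 174 at 60dG and 12.8, 58.9 and 13.8 at 160dG, and MEOX1 288 and 219.8 at 60dG and 24.7, 70.6 and 60.7 at 160dG. SIX2 was not called without the filter, and CITED1 and MEOX1 were called lower (-2.34 ± 0.61 and -2.05 ± 0.32).

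Of 8 genes of the renal vesicle and S-shaped body, HEY1, a Notch target, and SOX9 fell. SOX9 read 927 and 650.4 at 60dG and 182, 350.1 and 285 at 160dG (-1.51 ± 0.25, adjusted p = 0.00144) and was kept, but a second probe set of SOX9 showed a difference of 0.10. LHX1 (-0.71 ± 0.28), JAG1 (-0.58 ± 0.27) and PAX8 (0.21 ± 0.16) did not pass. Of 10 ureteric bud genes, 5 fell and 0 rose, and 2 falls were kept, those of SOX9 and of ETV5. ETV5, a target of the GDNF receptor RET at bud tips, read 372 and 423 at 60dG and 124, 153 and 191 at 160dG (-1.29 ± 0.22, adjusted p = 0.00195). RET itself read 252 and 263 at 60dG and 98.7, 377 and 246 at 160dG, with overlapping stages (-0.26 ± 0.38, adjusted p = 0.744). Without any 1 of the 60dG or 160dG arrays, 2 or 3 members were called. ETV4, a relative of ETV5 under the filter, read 218 and 169 at 60dG and 61.3, 13.7 and 10.3 at 160dG and was called lower without the filter (-2.41 ± 0.49).

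In the stroma, FOXD1, the factor of cortical stromal progenitors, read 873 and 825 at 60dG and 275, 318 and 457 at 160dG (-1.27 ± 0.23, adjusted p = 0.00287) and was the only call kept of 5 in the list, where 3 of 12 members rose and 2 fell. TNC (1.28 ± 0.36), PDGFRA (0.54 ± 0.14) and TCF21 were the members called higher. None of the 3 was called when either 60dG array was left out, and 1 was called when any of the 160dG arrays was.

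**Figure D4:**
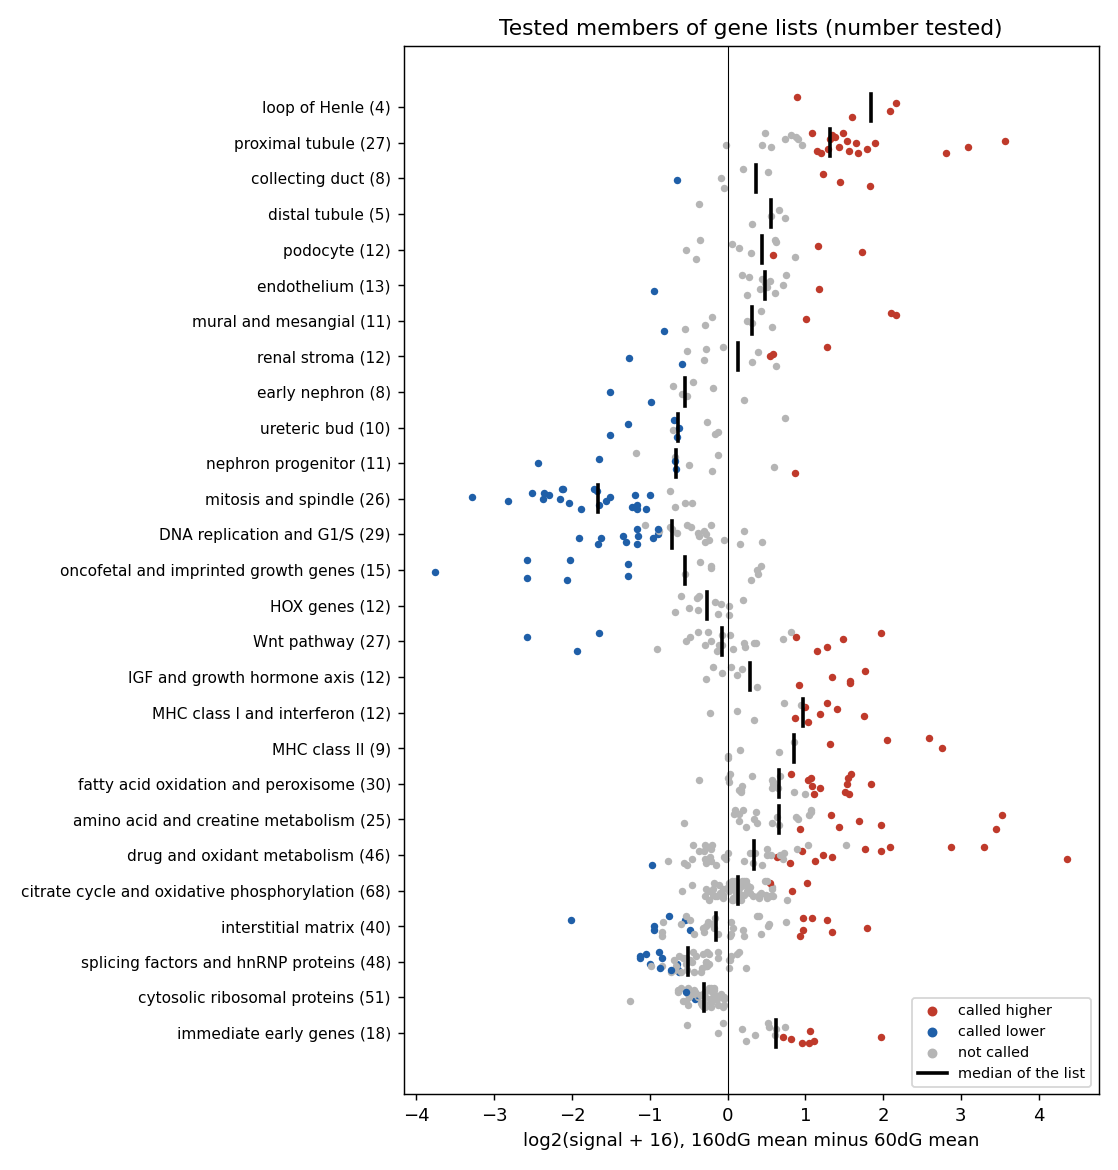
Log2 difference between 160dG and 60dG of each tested member (1 point a gene) of 27 gene lists, with the number tested in brackets. Red and blue points were called higher and lower, grey points were not called, and the black bar is the median of the list, from 1.85 for the loop of Henle to -1.66 for mitosis and spindle.

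Genes of cell division had the largest share of calls among the lists with over 10 tested members. Of 26 mitosis and spindle genes tested, 22 (84.6%) were called lower and 0 higher (median -1.66), 15 were kept, and all 26 had every 160dG array below both 60dG arrays. That non-overlap held for 21.9% of all genes. CKS2, which binds the mitotic kinase, read 1469 and 1326 at 60dG and 111, 142 and 134 at 160dG (-3.29 ± 0.21, adjusted p = 7.57e-07). CCNB2, a mitotic cyclin, read 1489 and 1218 at 60dG and 123, 244 and 179.9 at 160dG (-2.83 ± 0.26), CDC20, which starts anaphase, 615 and 569.9 at 60dG and 46.9, 189.5 and 78.4 at 160dG (-2.51 ± 0.36), and the kinase CDK1 1282 and 2158 at 60dG and 249, 476 and 393 at 160dG (-2.16 ± 0.28). In CDC20 the 160dG arrays differed from each other by a factor above 4, with replicate 2 highest. MKI67, the antigen Ki-67, read 249 and 303 at 60dG and 142, 139 and 95.8 at 160dG (-1.05 ± 0.28, adjusted p = 0.0265) and lost its call when either 60dG array was left out. TOP2A read 620.3 and 449 at 60dG and 89.6, 159 and 111 at 160dG (-2.03 ± 0.39) and lost it without 60dG replicate 1. Replicate 2 was the highest 160dG array for 19 of the 26 genes, the same array that was lowest for most proximal tubule genes. The fall was spread over gestation, with medians of -0.49, -0.72 and -0.64 against 60dG on the 90dG arrays, -0.85, -1.09 and -0.73 at 125dG and -1.85, -1.46 and -1.79 at 160dG. Without the filter on level, 57 genes of the list could be tested and 35 were called lower and 0 higher. Among those added, ASPM, a spindle pole protein, read 269 and 232 at 60dG and 27.9, 17.8 and 9.9 at 160dG, and MYBL2, a transcription factor of the cycle, read 302 and 322 at 60dG and 15.5, 30.3 and 38.5 at 160dG.

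Fewer replication genes passed. Of 29 tested, 11 were called lower and 0 higher (median -0.72), with 3 kept. The helicase subunit MCM2 read 897 and 1011 at 60dG and 235, 318 and 188 at 160dG (-1.91 ± 0.34, adjusted p = 0.00244) and MCM6 784 and 644 at 60dG and 247, 298 and 269 at 160dG (-1.34 ± 0.19, adjusted p = 0.000342), while the sliding clamp PCNA differed by -0.28 ± 0.27 and was not called. The calls numbered 3 without 60dG replicate 1, and 7 when 60dG replicate 2, 160dG replicate 1 or 160dG replicate 3 was left out. The cell cycle inhibitor CDKN1C, an imprinted gene, read 1852 and 2689.5 at 60dG and 2340.2, 3912 and 3042 at 160dG and did not pass (0.44 ± 0.22). Among 10 chromatin writers, EZH2, the methyltransferase of Polycomb, read 690.4 and 648 at 60dG and 178, 254 and 168 at 160dG (-1.69 ± 0.22, adjusted p = 0.000184) and was kept, and DNMT1, which copies DNA methylation, fell by 0.74 with an adjusted p of 0.0479 that was above the threshold without 60dG replicate 2.

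Of 5 oncofetal genes tested, 5 were called lower: the chromatin proteins HMGA2 and HMGA1, the RNA-binding proteins IGF2BP2 and IGF2BP3, and the secreted Wnt inhibitor DKK1, which is also in the Wnt list below. HMGA1 read 1551 and 952 at 60dG and 299, 222 and 325 at 160dG (-2.07 ± 0.24). Like the other lists, this list was chosen with earlier results of these data known, here these genes' falls. Its count is therefore no independent evidence of direction. Of 10 imprinted growth genes, 2 fell. PEG10, a retrotransposon-derived placental gene, was called (-2.02 ± 0.31), and MEST, an imprinted hydrolase, read 11862 and 11898 at 60dG and 3838, 4599 and 6608 at 160dG (-1.28 ± 0.19, adjusted p = 0.000529). DLK1, a paternally expressed signal, read 1519 and 2489 at 60dG and 3240.3, 1780.1 and 2889 at 160dG and was not called (0.39 ± 0.28). Of the 12 HOX genes tested, 0 were called either way (limma; median -0.27, from -0.68 ± 0.32 for HOXD11 to 0.20 ± 0.31 for HOXC4), and 0 under any other setting run. Of 7 SOX genes SOX11 also fell (-1.08 ± 0.21), and SOX4 read 5869.9 and 5359 at 60dG and 5177, 6378 and 4744 at 160dG, with overlapping stages (-0.06 ± 0.14).

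In the Wnt pathway, whose secreted ligands direct both the induction of nephrons and the growth of tubules, secreted inhibitors had the largest share of calls. Of the 6 tested, 4 rose and 1 fell. SFRP1, which binds Wnt ligands, read 719 and 426 at 60dG and 2357, 2034 and 2278 at 160dG (1.97 ± 0.30, adjusted p = 0.000577). SFRP4 (1.28 ± 0.34), DKK3 (1.15 ± 0.30) and WIF1 (0.88 ± 0.25) were also called higher, and DKK1 was the inhibitor that fell. Among 10 receptors, FZD5 rose (1.49 ± 0.27) and FZD2 fell, at 1598 and 1169.6 at 60dG and 309.9, 499 and 494 at 160dG (-1.65 ± 0.29). LEF1, a transcription factor that is itself induced by the pathway, read 579.8 and 533 at 60dG and 122, 242 and 77.8 at 160dG (-1.94 ± 0.31, adjusted p = 0.000919), while CTNNB1, the beta-catenin gene, differed by -0.11 ± 0.18. The 2 ligands tested, WNT5A (-0.14 ± 0.24) and WNT6 (0.22 ± 0.22), were not called. Over the whole list 5 rose and 3 fell of 27, and kept were 2 and 3. The calls higher numbered 2 without 60dG replicate 1 and 3 without 60dG replicate 2 or 160dG replicate 2 or 3.

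In other pathways of kidney induction most members were not called. Called lower were 9.09% of Notch, 3.85% of BMP and TGF-beta and 21.4% of FGF and RET genes, against 4.72% of all genes. Called higher were 0%, 3.85% and 7.14%, against 6.92% of all genes. Of 11 Notch genes 1 was called, HEY1, at 1110.3 and 922 at 60dG and 445, 587 and 489.6 at 160dG (-0.98 ± 0.22), and not without 60dG replicate 1, while the target HES1 differed by 0.15 ± 0.28. Of 26 BMP and TGF-beta genes 1 rose and 1 fell. Follistatin (FST), which binds activin, read 548 and 618 at 60dG and 116, 241 and 163 at 160dG (-1.71 ± 0.33, adjusted p = 0.00374) and was kept, and the inhibitory SMAD7 rose by 0.73 ± 0.19, but not when 60dG replicate 1 or 160dG replicate 2 or 3 was left out. The ligand BMP7 read 332 and 368 at 60dG and 138, 282 and 186 at 160dG without overlap and missed the threshold (-0.80 ± 0.26, adjusted p = 0.0628). Of 14 FGF and RET genes, FGF9 rose, and the feedback genes DUSP6 (-1.20 ± 0.29) and SPRY1 (-0.63 ± 0.18) fell with ETV5. Of the 3 falls 1 was called without 60dG replicate 1 or 160dG replicate 3.

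The IGF axis, which sets fetal growth, had 5 of 12 members called higher and 0 lower (median 0.29), with 3 kept. They were 4 binding proteins and a ligand. IGFBP7, a matrix-associated binding protein, read 4004 and 3721 at 60dG and 10497, 12628 and 11438 at 160dG (1.57 ± 0.14, adjusted p = 9.17e-06) and IGFBP5 2596 and 2279 at 60dG and 6889, 6384 and 5343 at 160dG (1.34 ± 0.15). IGFBP3 read 436 and 318 at 60dG and 1149, 1114 and 1754 at 160dG (1.77 ± 0.24), all without overlap. IGF1 read 126 and 78.5 at 60dG and 297, 446 and 264 at 160dG (1.57 ± 0.32), and it and IGFBP4 (0.92 ± 0.22) lost their calls without 60dG replicate 2. The receptors IGF1R (-0.07 ± 0.45) and IGF2R (0.38 ± 0.18) did not pass.

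Of 14 renin-angiotensin, natriuretic peptide and prostaglandin genes, 3 rose, all of the prostaglandin branch, and all were kept. PTGER4, an E2 receptor, read 190.4 and 153 at 60dG and 753, 918 and 884 at 160dG (2.21 ± 0.20, adjusted p = 1.68e-05). It moved late: at 125dG PTGER4 had covered 37.6% of its difference and PTGER3 60.4%. Of the 5 renin-angiotensin genes tested 0 were called (limma). AGTR1, the angiotensin receptor, was at 0.57 ± 0.30 and AGT, which codes for the angiotensin precursor, at -0.56 ± 0.30. Under the filter, ACE read 3.0 and 12.7 at 60dG and 75.5, 91.7 and 26.2 at 160dG and was called higher without it (1.68 ± 0.46). Among 5 chemokine genes, CXCL12, the ligand of CXCR4, rose besides CXCL14, at 3239.7 and 2535 at 60dG and 4423, 5328 and 4511 at 160dG (0.72 ± 0.17), but not without 60dG replicate 2, and a second probe set of CXCL12 differed by 0.07.

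About as many antigen presentation genes rose as did not pass, and 0 fell. Of 12 genes of MHC class I and interferon response, 7 were called higher and 0 lower (median 0.97), with 4 kept and 4 called without 60dG replicate 1. B2M, the light chain shared by class I molecules, read 3994 and 3428 at 60dG and 10859, 7782 and 8713 at 160dG (1.28 ± 0.20, adjusted p = 0.000734), and HLA-B read 1394 and 1886 at 60dG and 7648, 5295 and 4085 at 160dG (1.75 ± 0.25). HLA probe sets were designed on human alleles and can bind several class I genes, so they do not separate the members. Of 9 class II genes, 4 rose and 0 fell (median 0.86), and 3 were kept. HLA-DRA, the alpha chain of HLA-DR, read 41.2 and 107 at 60dG and 553, 490.4 and 615 at 160dG (2.76 ± 0.32, adjusted p = 7.53e-05), and CD74, its chaperone, read 17.3 and 108 at 60dG and 398, 309 and 409.8 at 160dG (2.58 ± 0.40). In both, 60dG replicate 1 was the lowest array. Of 5 tested macrophage markers 0 were called (limma, median 0.44), with the receptor CSF1R at 0.46 ± 0.22 and the integrin ITGB2 at 0.51 ± 0.26. The macrophage receptor MRC1 lay under the filter, at 94.5 and 55.3 at 60dG and 144, 227.3 and 191 at 160dG. It was called higher without the filter (1.18 ± 0.31). The summed signal of all 19 macrophage markers on the table was 1941 and 2142 on the 60dG arrays and 2583 to 2717 on the 160dG arrays, and that of 8 lymphocyte markers 418.9 and 885.1 against 817.3 to 1081. Whether cells of these kinds moved the class II genes was not tested. Of 9 complement genes 3 rose, with the terminal component C7 kept, at 98.6 and 148 at 60dG and 603, 526 and 491 at 160dG (2.02 ± 0.27), and CFI (1.29 ± 0.29) and CD59 (0.96 ± 0.19) called without 60dG replicate 2 but not without replicate 1.

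Among the metabolic lists, fatty acid oxidation had the largest share of calls. Of 30 fatty acid oxidation and peroxisome genes, 12 rose and 0 fell (median 0.67, 29 of 30 positive), with 6 kept. SLC27A2, which activates very long chain fatty acids, read 401 and 484 at 60dG and 1477, 1582 and 1855 at 160dG (1.85 ± 0.19, adjusted p = 2.56e-05), and CROT, a peroxisomal carnitine transferase, read 277 and 194 at 60dG and 727, 881 and 604 at 160dG (1.59 ± 0.27). PPARGC1A, the coactivator of mitochondrial biogenesis, read 300.4 and 164 at 60dG and 714, 622 and 707 at 160dG (1.54 ± 0.31) and lost its call without 60dG replicate 2. CPT1A, the gate of mitochondrial import, was not called (0.17 ± 0.34). Replicate 2 was the lowest 160dG array for 20 of the 30. Of 19 sugar enzymes, 4 rose, all of gluconeogenesis or fructose use: PCK1, at 127 and 108 at 60dG and 564, 388 and 497 at 160dG (1.89 ± 0.22, adjusted p = 8.51e-05), PCK2 (2.04 ± 0.24), FBP1 (1.88 ± 0.31) and the fructokinase KHK (1.79 ± 0.36). Enzymes shared with glycolysis did not pass, from 0.18 ± 0.17 for LDHB to -0.48 ± 0.20 for GAPDH, and 12 of the 19 differences were negative. Of 19 citrate cycle genes 3 rose, SUCLG2 (1.02 ± 0.23), SUCLG1 (0.83 ± 0.15) and IDH2 (0.55 ± 0.16), of which SUCLG1 was kept, and 1 was called without 60dG replicate 2. Of 49 genes of electron transport and ATP synthase 0 were called in either direction (limma; median 0.09).

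Of 25 genes of amino acid and creatine metabolism 7 rose (median 0.66), and 5 were kept. Besides AOC1 and GATM, they included ASS1, which makes argininosuccinate, at 431 and 427 at 60dG and 1782, 842 and 1913 at 160dG (1.69 ± 0.30), and BHMT2, a homocysteine methyltransferase, at 41.3 and 108 at 60dG and 356, 207 and 414 at 160dG (1.97 ± 0.34). In ASS1 the 160dG replicate 2 lay at about the midpoint between the stages on the log scale. Of 46 genes of drug and oxidant metabolism 12 rose and 1 fell (median 0.34), and 7 rises were kept, among them the sulfotransferase SULT1C2 at 166 and 119 at 60dG and 684, 554 and 731 at 160dG (2.09 ± 0.28). The gene that fell was ALDH1A1, a retinal dehydrogenase, at 2403 and 2384 at 60dG and 1131, 1425 and 1117 at 160dG (-0.97 ± 0.24), and it lost its call when either 60dG array was left out. Of 25 phase I and II enzymes 9 rose, and of 21 peroxide-removing enzymes and metallothioneins 3, a difference between shares that was not tested. MT1G, a metallothionein, read 828 and 963 at 60dG and 658, 631 and 523 at 160dG (-0.56 ± 0.25, adjusted p = 0.174). Of 21 pump genes 6 rose, with 3 called without 60dG replicate 1. ATP1B1, the beta subunit of the sodium pump that powers tubular transport, read 3509.6 and 2839.5 at 60dG and 10404, 8609 and 8251 at 160dG (1.51 ± 0.15, adjusted p = 2.56e-05), and CA12, a carbonic anhydrase, read 324 and 270.1 at 60dG and 1211, 1120.2 and 1285 at 160dG (1.97 ± 0.22). As in the proximal tubule list, 160dG replicate 2 was the lowest array of its stage for 17 of the 25 amino acid genes and 27 of the 46 drug and oxidant genes. Of 12 retinoid genes RDH11, a retinol dehydrogenase, rose (1.09 ± 0.30) and ALDH1A1 fell, and neither was kept. Each call was 8.33% of the list, against 6.92% of all genes called higher and 4.72% called lower.

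Matrix genes went both ways. Of 40 interstitial matrix genes 7 rose and 6 fell (median -0.14), and 2 and 1 were kept. FBN2, the fibrillin of embryonic tissue, read 1157 and 966 at 60dG and 268, 245 and 239 at 160dG (-2.01 ± 0.23, adjusted p = 7.53e-05), whereas FBN1, which is made throughout life, differed by 0.07 ± 0.23. THBS2, a thrombospondin, read 268 and 353 at 60dG and 1103, 979.7 and 1272 at 160dG (1.80 ± 0.20), and the elastin gene ELN differed by 0.97 ± 0.28 and was called. COL1A1, the main collagen of connective tissue, read 11921 and 10260.1 at 60dG and 8612, 7306 and 7889.6 at 160dG (-0.48 ± 0.14, adjusted p = 0.0441), a fall that lost its call when either 60dG array was left out and under quantile normalization. The list had 2 rises and 2 falls without 60dG replicate 1, and 3 falls without 60dG replicate 2 or 160dG replicate 2. Of 16 basement membrane genes 2 rose. COL4A3, a collagen chain of the mature glomerular basement membrane, read 330.3 and 239 at 60dG and 586, 1408 and 1558 at 160dG (1.89 ± 0.33, adjusted p = 0.00208) and was kept, with 160dG replicate 1 well below the other 2. COL4A1, of the early membrane, read 4258 and 3937 at 60dG and 5892, 8046 and 7740.3 at 160dG (0.80 ± 0.17) and was not called without 60dG replicate 2. Of 10 metalloproteinases and their inhibitors, TIMP1 fell, at 1452 and 1488 at 60dG and 902, 745 and 857 at 160dG (-0.81 ± 0.16), and was kept. Of 14 junction genes 4 rose, with CDH16 alone called without 60dG replicate 1. CDH2, the N-cadherin of mesenchyme and early nephron, fell, at 1198 and 1192 at 60dG and 494, 256 and 465 at 160dG (-1.58 ± 0.29, adjusted p = 0.00275).

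Few calls among genes of RNA and protein processing were kept. Of 48 splicing factors 11 were called lower and 0 higher (median -0.50, 41 negative), but 0 were kept: 1 was called without 60dG replicate 1 and 5 without 60dG replicate 2. HNRNPL read 3066 and 4053 at 60dG and 1829, 1555 and 1475 at 160dG (-1.12 ± 0.22, adjusted p = 0.00427) and PTBP1, a repressor of exon inclusion, 3059 and 2154 at 60dG and 1109, 1337 and 1263 at 160dG (-1.05 ± 0.21). All 51 cytosolic ribosomal protein genes had a negative difference (median -0.31), and 3 (5.88%, against 4.72% of all genes) were called lower, RPS19 (-0.53 ± 0.16), RPL32 (-0.42 ± 0.12) and RPL37A (-0.38 ± 0.11). Under quantile normalization 0 were called, as they were without the filter and when either 60dG array or 160dG replicate 2 or 3 was left out. Of 24 chaperones 4 fell, and HSPH1 was kept, at 882 and 1209 at 60dG and 529.8, 287 and 419.7 at 160dG (-1.33 ± 0.23). Of 27 tubulin, stathmin and guidance genes 7 fell and 1 rose, with 1 fall kept and 2 and 3 falls called without 60dG replicate 1 and 2. Of 18 immediate early genes, which answer stimuli within minutes and can respond to tissue handling, 7 rose and 0 fell (median 0.62). CCN1 was kept, at 291 and 302 at 60dG and 1055, 1272 and 1308 at 160dG (1.97 ± 0.25, adjusted p = 0.000142), and EGR1 did not pass (0.61 ± 0.45, adjusted p = 0.451). Leaving out an array brought the calls to 2 (60dG replicate 1), 3 (60dG replicate 2) and 4 (160dG replicate 2). FOS lay under the filter, at 13.5 and 6.6 at 60dG and 302, 381 and 367 at 160dG. Of 15 hypoxia and angiogenic genes only VEGFA was called (0.59 ± 0.18, adjusted p = 0.0442), and not without 60dG replicate 2 or 160dG replicate 1 or 3. VEGFA lost its call in 12 of 22 other settings, among them no filter, a prior with no intensity trend and the 5 arrays alone. The 1 call was 6.67% of the list, against 6.92% of all genes called higher.

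Genes of tissues other than kidney were also among the largest differences. COL2A1, the collagen of cartilage that embryonic epithelia also make, read 1169.7 and 1172 at 60dG and 62.6, 161 and 69.6 at 160dG (-3.48 ± 0.30, adjusted p = 9.17e-06), and COL11A1 fell with it (-1.30 ± 0.29). The other cartilage markers were dim: 11 of the 14 measured lay under the filter, ACAN among them at 65.4 and 33.7 at 60dG and 98.5, 86.6 and 103 at 160dG. The summed signal of the 14 was 2211 and 2351 on the 60dG arrays and 1174 to 1286 on the 160dG arrays. COL2A1 was in this sum, and its own fall was about as large as that of the sum, so the sum shows no fall of the other markers. Of 7 red cell genes tested, 1 rose and 1 fell. The embryonic globin HBE1 read 1127 and 2500.4 at 60dG and 112, 119 and 136 at 160dG (-3.62 ± 0.36), and HBZ, under the filter, 299.7 and 421 at 60dG and 20.7, 8.9 and 6.0 at 160dG. The adult beta globin HBB rose, at 315 and 238 at 60dG and 687, 536 and 573 at 160dG (1.08 ± 0.22, adjusted p = 0.00573), with 20.04% of its difference covered at 125dG, and it was not called without 60dG replicate 2. A further HBB probe set had a larger difference (2.46 ± 0.23) and an earlier course, at 139 and 73.1 at 60dG, 343, 335 and 297 at 90dG and 618, 684 and 596 at 160dG, so the time of the rise differed between probe sets. HBB probe sets can also bind other beta-like globins. The summed signal of 18 red cell genes was 4935 and 6522 on the 60dG arrays and 4117 to 4647 on the 160dG arrays. HBE1 was in this sum, and its mean fell by more than that of the sum, so the sum shows no fall of the other red cell genes. Of 21 liver plasma protein genes measured, 3 passed the filter and AFP was called. Without the filter 3 of the 21 were called lower and 0 higher, among them albumin (ALB), at 205 and 313 at 60dG and 46.2, 60.4 and 47.6 at 160dG (-2.01 ± 0.38). The summed signal of the 21 was 3288 and 5789 on the 60dG arrays and 1766 to 1989 on the 160dG arrays. AFP was in this sum and made up most of its fall. The neuronal genes UCHL1, at 1002 and 748 at 60dG and 245, 346 and 270.0 at 160dG (-1.56 ± 0.23), and TUBB3 (-1.003 ± 0.18) fell, while 9 further nerve and glia markers were under the filter, and the 11 together summed to 4150.2 and 3605 on the 60dG arrays and 2108 to 2196 on the 160dG arrays. UCHL1 and TUBB3 made up most of the fall of this sum. Of 11 skeletal muscle and 5 fat cell markers measured, 3 passed the filter and 0 were called (limma). The part of blood, cartilage or nerve cells in these values was not tested. The 1 adrenal marker above the filter, INHA, was not called (-0.42 ± 0.51), and the lymphocyte markers were all under it.

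The stages in between show when the differences arose. Shares were computed on the probe set used for each gene. Genes called higher had covered a median of 67.2% of their log2 difference at 90dG and 78.7% at 125dG, and 256 of the 365 were past 50% at 90dG. Genes called lower had covered 30.7% and 57.7%, and 72 of the 249 were past 50% at 90dG. At 90dG the mean of 59 of the 249 was still above the 60dG mean, and that of 53 of the 365 was already beyond the 160dG mean. GPX3 was of the last kind, at 105% at 90dG, and CD74 at 100.5%. Late genes among the largest falls were DKK1, with 3.50% covered at 90dG and 56.1% at 125dG, HBE1 (1.74% and 70.8%) and COL2A1 (8.57% and 41.7%). The further COL2A1 probe set fell earlier, from 796 and 885 at 60dG to 392, 491 and 367 at 90dG and 258, 185 and 214 at 125dG, so the late course of COL2A1 rests on 1 probe set. MEST was late too (5.75% and 64.2%), while HMGA2 fell step by step (32.1% and 72.4%). The means moved in 1 direction through all 4 stages for 181 of the 365 and 135 of the 249. These shares use the same 60dG and 160dG arrays as the calls, and the 90dG arrays include the one with the highest GAPDH ratio, whose part in them was not tested.

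**Figure D5:**
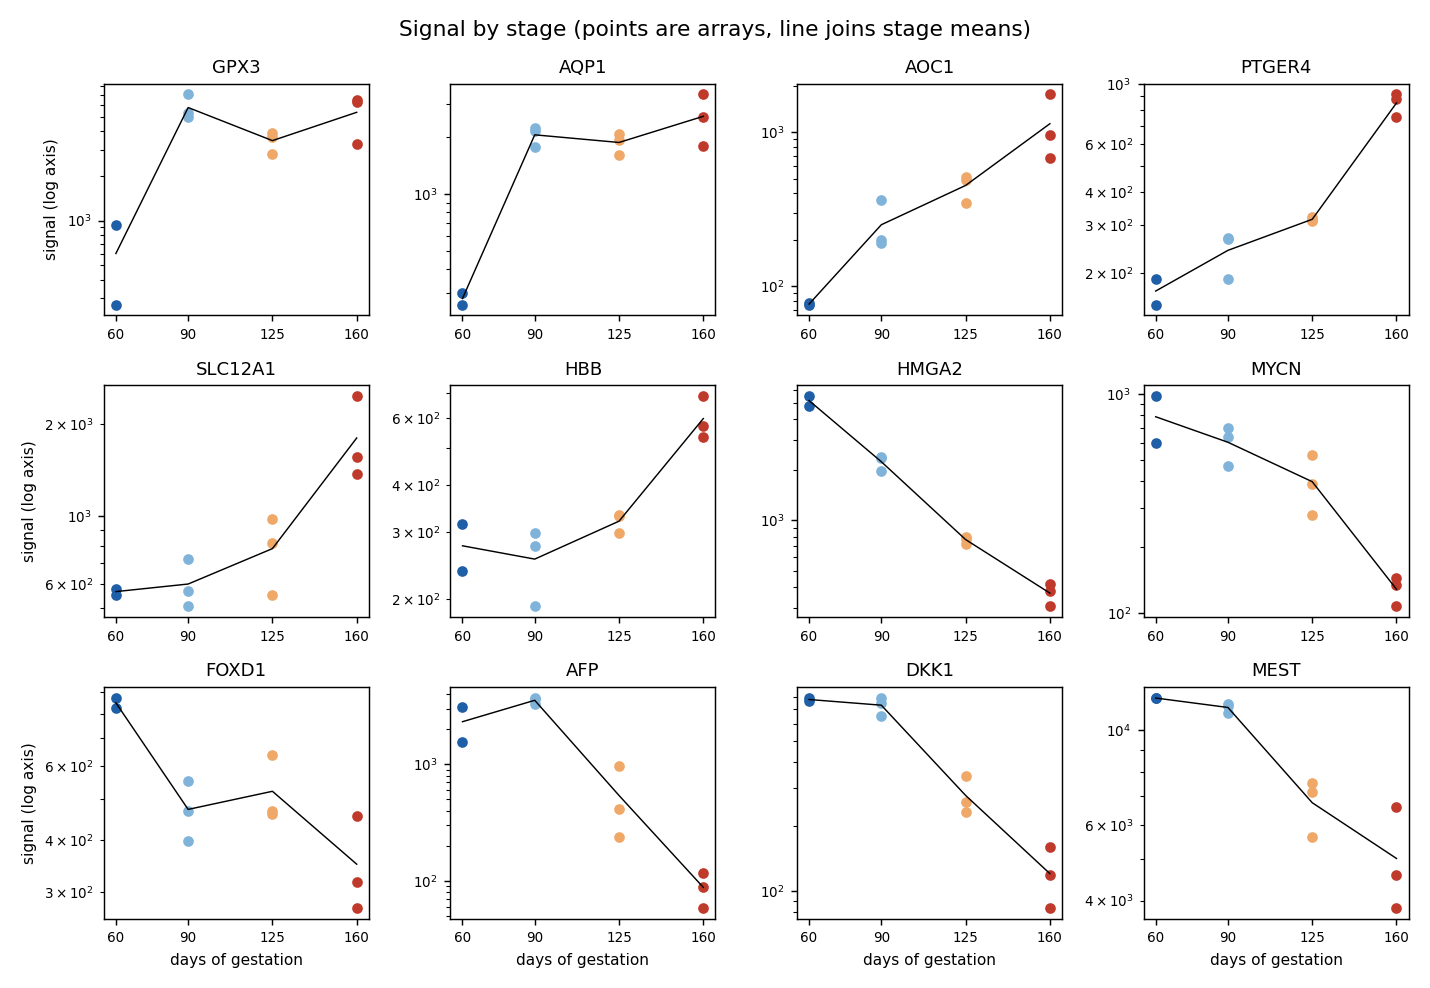
Signal (log axes, a scale for each gene) against days of gestation for 12 genes on the 11 fetal arrays, with a line through the stage means. On the probe sets used, GPX3 and AQP1 are near their 160dG level by 90dG, and PTGER4, SLC12A1 and HBB rise mainly after 125dG. A further AQP1 probe set lay below its 160dG level at 90dG, and a further HBB probe set rose by 90dG. AFP, DKK1 and MEST keep their level until 90dG and then fall.

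Further probe sets of the same genes gave a second reading through other probes. For 169 called genes, 242 further probe sets lay above the filter. Of these 235 (97.1%) had the direction of the gene's call, against 75.1% of 1907 further probe sets of all genes, and 100 were called the same way and 0 the opposite way. GATM (3.00 beside 3.46), PTGDS (2.43 and 2.50 beside 2.81) and COL2A1 (-3.00 beside -3.48) had close values. AQP1 had the same direction and a smaller size (0.96 beside 3.09). H2AX did not pass on its others (-0.72 and -0.44 beside -2.25), nor did PAX2 (-0.03 beside -0.66) or the second CDH2 probe set (-0.73 beside -1.58). For PECAM1 a further probe set was called higher (1.23) where the main one was not.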

How the data were processed

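Total RNA of whole kidney was labelled with biotin and hybridised to human Affymetrix arrays, per the labels' protocols. The authors deposited 1 linear signal intensity per probe set, and per the submitters' processing notes GCOS was used; its version and scaling are unknown, as the labels do not give them. Intensity columns of the 11 fetal arrays (16186 probe sets) were read, and samples were grouped by title. Of these, 14068 probe sets had 1 gene symbol in the platform annotation, 735 several, 1340 none and 43 were controls. For each gene the probe set with the highest mean was used, with log2(signal + 16). Genes with a mean above the median of all probe sets (7.60, a signal of 178) were kept, which left 5278 of 9580. limma 3.58.1 (R 4.3.3) was fitted with 1 mean per stage over 11 arrays, eBayes with an intensity trend, and the contrast 160dG minus 60dG. p-values were adjusted by Benjamini-Hochberg over all 5278 genes. With 2 and 3 arrays the number of arrays limits the precision. In simulated data of this design, 57.8% of 2-fold and 96.1% of 4-fold changes were recovered. Dams and litters are not stated, so p-values measure the spread between these arrays.

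The stages compared and the 53 gene lists were chosen with earlier results of these data known. Genes were named by rule: the 15 largest rises and falls among called genes without overlap, up to 4 called members of each list, and a set of kidney genes whatever their values. Other members, genes under the filter and genes in no list were named after their values were seen. Tested alternatives were the pseudocount (1 or 64), the filter (none, or the 0.75 quantile), a replicate block, quantile normalization, array weights, a prior with no intensity trend, the 5 arrays alone, no 90dG group, another probe set per gene, every probe set tested separately, and each array left out in turn. Figures were drawn with matplotlib 3.10.9.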

Additional observations from a re-analysis of the deposited data

How the results depend on the processing

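The count of 614 genes lay between 523 and 734 under 9 settings: both other pseudocounts, no filter, quantile normalization, no trend, array weights, the replicate block, the 5 arrays alone, and no 90dG group. With the replicate number as a block 523 genes were called (313 higher, 210 lower). Arrays with the same number did not deviate together (r between -0.11 and 0.18 over 15 pairs, and between -0.18 and 0.17 over 30 pairs of other numbers), so the numbers are not taken to pair the arrays. All probe sets tested separately gave 793 calls of 8066. The filter at the 0.75 quantile, which leaves 2682 genes, gave 226 higher and 179 at least 2-fold. A second probe set, which 1349 genes had, gave 70 calls, 52 higher and 18 lower, 54 of them at least 2-fold. Leaving out 1 array at a time gave 242 to 700 calls, 166 to 399 higher, 76 to 301 lower and 224 to 363 at least 2-fold. The lowest counts were those without 60dG replicate 1, a fit with 1 array of 60dG. Of 177 named genes 150 were called, 82 of them under every setting but the second probe set. Among the 150 called genes SOX9 alone changed sign, to 0.10 on its second probe set, and the cause was not tested. Of those not called, COL3A1 (0.50, second probe set), RET (0.23, without 160dG replicate 1), SOX4 (0.26, quantile normalization), FN1, NPHS1 and PDGFRB changed sign under at least 1 setting. Calls of COL1A1, GATA3, MEIS2, RPL32, RPL37A and RPS19 were lost under quantile normalization. Of 4302 genes under the filter, 119 were called without it, and the effect of baboon sequence on the probes was not tested.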

Other observations

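Of the 614 called genes, 388 were in none of the gene lists, 238 higher and 150 lower. The genes named here were chosen after their values were seen. No list of lysosomal genes was tested, so the following are single genes and not a group result. PSAP, the saposin precursor, read 1125 and 909 at 60dG and 5042, 3080.0 and 2921 at 160dG (1.80 ± 0.31). The proteases CTSH (1.75 ± 0.21), CTSL (1.49 ± 0.18) and LGMN (1.30 ± 0.24), the nuclease RNASET2 (1.24 ± 0.25) and TFEB, a transcription factor of lysosomal genes (1.32 ± 0.28), were also called. CTSL read 437 and 384 at 60dG and 1153, 1099 and 1294 at 160dG, with no overlap. NR3C2, the mineralocorticoid receptor, read 132 and 245 at 60dG and 446, 529.5 and 505 at 160dG (1.37 ± 0.27), and KL, the FGF23 coreceptor, read 109 and 142 at 60dG and 219.7, 327 and 355 at 160dG (1.15 ± 0.33). NOX4, the oxidase of tubule cells, read 54.8 and 78.8 at 60dG and 273, 270.1 and 420.1 at 160dG (2.01 ± 0.30), and AQP6, a channel of intercalated cells, read 103 and 159.7 at 60dG and 479, 442 and 669 at 160dG (1.89 ± 0.28). DEFB1, the antimicrobial peptide of the distal nephron, read 277 and 309.7 at 60dG and 1261, 653 and 1035 at 160dG (1.64 ± 0.27), and CRYAB, a small heat shock protein, 244 and 289.5 at 60dG and 1268, 1109.8 and 1096 at 160dG (2.06 ± 0.18). ANK2, which anchors membrane proteins, had tight arrays at both stages, at 443 and 351 at 60dG and 1703, 1576 and 1945 at 160dG (2.09 ± 0.17).

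Among the falls outside the lists were the nuclear import receptor KPNA2, at 1268 and 1135 at 60dG and 241, 386 and 228 at 160dG (-2.05 ± 0.22), the histone chaperone NASP (-1.98 ± 0.31), the gap junction protein GJA1, at 1042 and 1005 at 60dG and 329, 320.3 and 155 at 160dG (-1.94 ± 0.31), and HMGB2 (-1.66 ± 0.30). TWIST1, a mesenchymal factor, read 253 and 222 at 60dG and 84.1, 125 and 84.7 at 160dG (-1.17 ± 0.25), and LGR5, a receptor of Wnt-amplifying R-spondins found in early nephrons, read 556 and 438 at 60dG and 177, 329 and 185 at 160dG (-1.10 ± 0.25).

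Of 4302 genes under the level filter, 119 were called when the filter was left out, 61 higher and 58 lower. XIST was among the 58 through 60dG replicate 1 alone. CEACAM1, an adhesion molecule, read 3.0 and 17.7 at 60dG and 230.0, 351 and 308 at 160dG (3.61 ± 0.39), DPT, a dermatopontin of connective tissue, 7.5 and 37.8 at 60dG and 569, 180.4 and 535 at 160dG (3.49 ± 0.52), and HPD, of tyrosine breakdown, 10.1 and 8.5 at 60dG and 95.4, 154 and 202 at 160dG (2.67 ± 0.62).

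Between the 60dG arrays, 7 of 9580 genes differed at least 8-fold on the log2 scale, CYP17A1, STAR, RPS4Y1, XIST, CYP11A1, GSTA3 and MT1H. That count is within the range of other pairs from the same stage, from 0 (125dG replicates 1 and 2) to 11 (90dG replicates 1 and 3). GSTA3, a glutathione transferase that also acts in steroid synthesis, read 454.7 on 60dG replicate 2, 22.1 on replicate 1 and 3.6 to 31.2 on the 9 later arrays.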
